A study of Mus musculus with 34 samples.

Results

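The genes described are the DNA glycosylases that start the repair of oxidized and deaminated bases, with the nucleotide hydrolase Nudt1. The 10 members (Ogg1, Mutyh, Nudt1, Neil1, Neil2, Neil3, Nthl1, Ung, Smug1 and Tdg) were chosen by symbol, and all 10 were found among the 23951 genes listed for each mouse. Of the 10, 9 encode glycosylases and Nudt1 encodes a hydrolase of oxidized nucleotides. Ung, Smug1 and Tdg act mainly on uracil, on oxidized derivatives of thymine and cytosine, or on bases mispaired with guanine.

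RNA was compared in hippocampal tissue of 4 control (Hdac1f/f), 5 Hdac1 cKO (Hdac1f/f, Nestin-Cre), 6 5XFAD (Hdac1f/f, 5XFAD) and 5 compound mice (Hdac1f/f, Nestin-Cre, 5XFAD), and in GFAP+ nuclei that had been sorted from frozen cortex, for 3 control and 4 Hdac1 cKO animals. All groups carried the floxed Hdac1 allele, all mice were aged, and the labels give 13 to 14 months for the control and Hdac1 cKO hippocampus and 13 months for 5XFAD and compound mice. Nestin-Cre removes Hdac1 from neurons and astrocytes but leaves it in microglia, and 5XFAD mice are a transgenic model of amyloid pathology whose transgenes are driven by the neuronal Thy1 promoter. Each library came from 1 mouse, so the p-values measure the spread between mice. The study ties the deacetylase HDAC1 to OGG1. The other members are described as enzymes of the same repair pathway, and the comparisons ask whether loss of HDAC1, amyloid pathology or both change their transcripts.

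Base excision repair removes small base lesions in steps. A glycosylase cuts the damaged base from the sugar, an endonuclease opens the strand at the empty site, and a polymerase and a ligase fill and seal it. OGG1 recognises 8-oxoguanine paired with cytosine, MUTYH removes the adenine that was paired with 8-oxoguanine during replication, and NUDT1 (also called MTH1) hydrolyses the oxidized nucleotide before it is built into DNA. NTHL1 and NEIL1, NEIL2 and NEIL3 remove oxidized pyrimidines and opened purine rings, UNG and SMUG1 remove uracil, and TDG removes thymine or uracil opposite guanine and takes part in the active loss of cytosine methylation. Neurons divide no more and live on high oxygen use, so this pathway is a main defence of their genome.

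Expression was given as FPKM, the fragments of a gene scaled by the length of its transcript and by the size of the library. For most members the FPKM values were whole multiples of a gene's smallest step, within 0.05 steps, so that the number of fragments behind each value could be read off (fragment numbers below are these multiples). For genes with a single annotated transcript the steps placed the hippocampal libraries between 2460000 and 7660000 fragments and the libraries of GFAP+ nuclei between 7130000 and 10300000. Tdg in both tissues and Mutyh in the nuclei gave no clear step and are given as FPKM only. In the hippocampus the astrocyte marker Gfap lay between 23.4 and 176 FPKM and the neuronal marker Rbfox3 between 136 and 186 FPKM. In the GFAP+ nuclei Gfap lay between 53.9 and 93.5 FPKM and Rbfox3 between 15.4 and 16.9 FPKM. The score of the oligodendrocyte markers (mean log2 of FPKM + 1) in the nuclei lay between 5.13 and 6.78, and that of the astrocyte markers between 7.61 and 8.09. In bulk tissue fewer cells of a type and less RNA per cell cannot be told apart. The choroid plexus marker Ttr ranged from 576 to 20146 FPKM in control, from 56.5 to 1608 in Hdac1 cKO, from 53.8 to 7892 in 5XFAD and from 58.9 to 13910 in compound mice, with medians of 15194, 105, 4306 and 160 FPKM. The score of the 6 choroid plexus markers (mean log2 of FPKM + 1) was 5.36 ± 1.79 (SD, n = 4) in control and 1.97 ± 0.76 (SD, n = 5) in Hdac1 cKO, 3.80 ± 1.69 (SD, n = 6) in 5XFAD and 2.44 ± 1.82 (SD, n = 5) in compound mice. The score of the 4 ependymal markers did not overlap between control (3.42 to 4.69) and Hdac1 cKO mice (2.77 to 3.04), and was 2.88 to 3.68 in 5XFAD and 2.78 to 4.05 in compound mice. Markers of these ventricle-lining tissues thus differed along with the main comparison. Their part in the members' values was examined only by adding the choroid plexus score to the fits, and that of ependyma was not tested. The choroid plexus score of the GFAP+ nuclei was 1.39 to 2.50 in controls and 2.45 to 2.71 in Hdac1 cKO mice. Its marker Folr1 had 0 to 0.381 FPKM in controls and 0.798 to 1.85 FPKM in Hdac1 cKO mice. The other markers of this list overlapped between the groups. Clic6 went the other way, with 2.86 to 4.55 FPKM in controls and 1.09 to 3.4 FPKM in Hdac1 cKO mice. The score was not added to the fit of the nuclei, so its part in the members' nuclear values was not tested. The score of the 6 microglial markers (mean log2 of FPKM + 1) was 4.00 ± 0.14 (SD, n = 4) in control, 4.16 ± 0.04 (SD, n = 5) in Hdac1 cKO, 4.93 ± 0.10 (SD, n = 6) in 5XFAD and 5.20 ± 0.32 (SD, n = 5) in compound mice.

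Hdac1 itself was examined first. It had 5.91 to 10.7 FPKM in the 4 control and 6.1 to 9.64 FPKM in the 6 5XFAD hippocampi, and 2.36 to 3.03 FPKM in the 5 Hdac1 cKO and 1.15 to 2.52 FPKM in the 5 compound hippocampi. The groups with and without Nestin-Cre did not overlap. The log2 difference of FPKM + 1 was -1.23 (SE 0.16, limma adjusted p = 0.0236) for Hdac1 cKO against control and -1.66 (SE 0.16, limma adjusted p = 7.85e-04) for compound against 5XFAD mice. Compound against control gave -1.60 (SE 0.20, limma adjusted p = 0.00266). Both comparisons with control lost their call when the choroid plexus score or a replicate block was added, with log2 differences of -1.0 and -1.19 (limma adjusted p = 0.424 and 0.159) for Hdac1 cKO and of -1.48 and -1.64 (limma adjusted p = 0.0944 and 0.0527) for compound mice, while compound against 5XFAD kept it (limma adjusted p = 0.00603 and 0.0194). In the GFAP+ nuclei Hdac1 had 14.5, 9.91 and 22.3 FPKM in the controls and 9.71, 11.5, 5.8 and 8.73 FPKM in the Hdac1 cKO mice. Of the 4 Hdac1 cKO mice 3 lay below every control. The log2 difference of -0.70 (SE 0.28, 95% interval -1.32 to -0.08) is a fold of 0.616 on that scale, with an unadjusted limma p of 0.0308, a limma adjusted p of 0.984 and an exact permutation p of 0.114.

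The Ogg1 gene lies on chromosome 6 of mm9 at chr6:113276966-113285062 on the plus strand, with up to 7 exons. Its 3′ end overlaps the end of Camk1, a calcium/calmodulin-dependent kinase gene on the opposite strand, over 945 bases, 232 of them exonic in both genes and within 1000 bases of the end of Ogg1. Reads of a 3′ library fall at that end, and the sources used here do not give whether strand was used in the assignment, so fragments of the shared stretch could belong to either gene. Camk1 had 8.64 to 20 FPKM in the hippocampus. The pair of primers designed for qPCR of Ogg1 is shown because both lie outside this overlap. They are written 5′ to 3′, with no part in capitals. The forward primer lies in coding exon 3 (chr6:113279370-113279389) and is sense to the gene. The reverse primer is antisense and spans the junction between exons, with its ends at positions 113281943 and 113283350, and its match ends 533 bases before the 3′ end of the 1549-base transcript.
Ogg1 forward primer: atcatggcttcccaaacctc
Ogg1 reverse primer: gatgcagtcagccaccttg

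Guanine-rich DNA is readily oxidized, so the members' upstream sequences were searched for the GC box, a guanine-rich motif bound by SP factors. The 250 bases before the annotated start of Ogg1 (chr6:113276716-113276965, plus strand, NCBIM37, the assembly called mm9) are shown as the window with a box on each strand. Ung (upstream window chr5:114580145-114580394, plus strand) is shown beside it as a window with 1 box. Capitals mark the GC box GGGCGG or its reverse complement CCGCCC.
Ogg1 upstream: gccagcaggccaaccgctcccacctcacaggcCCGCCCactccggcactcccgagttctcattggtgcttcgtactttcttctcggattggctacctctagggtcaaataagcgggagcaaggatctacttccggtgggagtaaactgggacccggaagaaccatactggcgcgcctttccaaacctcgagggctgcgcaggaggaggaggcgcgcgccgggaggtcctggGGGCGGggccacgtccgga
Ung upstream: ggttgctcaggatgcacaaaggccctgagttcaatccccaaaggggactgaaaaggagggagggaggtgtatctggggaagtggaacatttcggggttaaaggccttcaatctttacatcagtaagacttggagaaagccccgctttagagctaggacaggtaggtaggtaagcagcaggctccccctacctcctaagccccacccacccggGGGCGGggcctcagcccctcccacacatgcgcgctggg
Ogg1 held 1 box on each strand, Mutyh 2 boxes, Nthl1 1 and Ung 1, and the windows of the other 6 members held none. That is 4 of 10 members (40%) against 39.6% of 22375 windows of protein-coding genes built in the same way. The shares are alike, and a match is a description of the letters only.

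The members fell into separate ranges of expression. In the hippocampus Tdg (9.16 ± 1.54 FPKM, SD, n = 20) and Nudt1 (7.31 ± 2.77 FPKM) were highest. Smug1 (3.25 ± 0.9 FPKM) and Nthl1 (2.54 ± 1.23 FPKM) followed. Mutyh (0.665 ± 0.462 FPKM), Ung (0.653 ± 0.503 FPKM), Neil2 (0.549 ± 0.493 FPKM), Neil1 (0.487 ± 0.484 FPKM) and Ogg1 (0.438 ± 0.301 FPKM) were all below 1 FPKM on average. Neil3 (0.0291 ± 0.0656 FPKM) was listed at 0 in 16 of the 20 libraries. Within each of these steps the neighbours differed by less than the larger of their SDs over mice, whereas Nudt1 and Smug1, Nthl1 and Mutyh, and Ogg1 and Neil3 differed by more. The order depends on the division by transcript length. Counted as fragments, Smug1, whose annotated transcript has 3231 bases, gave 9.29 to 11.8 fragments per 1000000 in the 4 groups, more than Nudt1, whose longest transcript has 954 bases, with 4.77 to 5.9 fragments per 1000000.

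**Figure D1:**
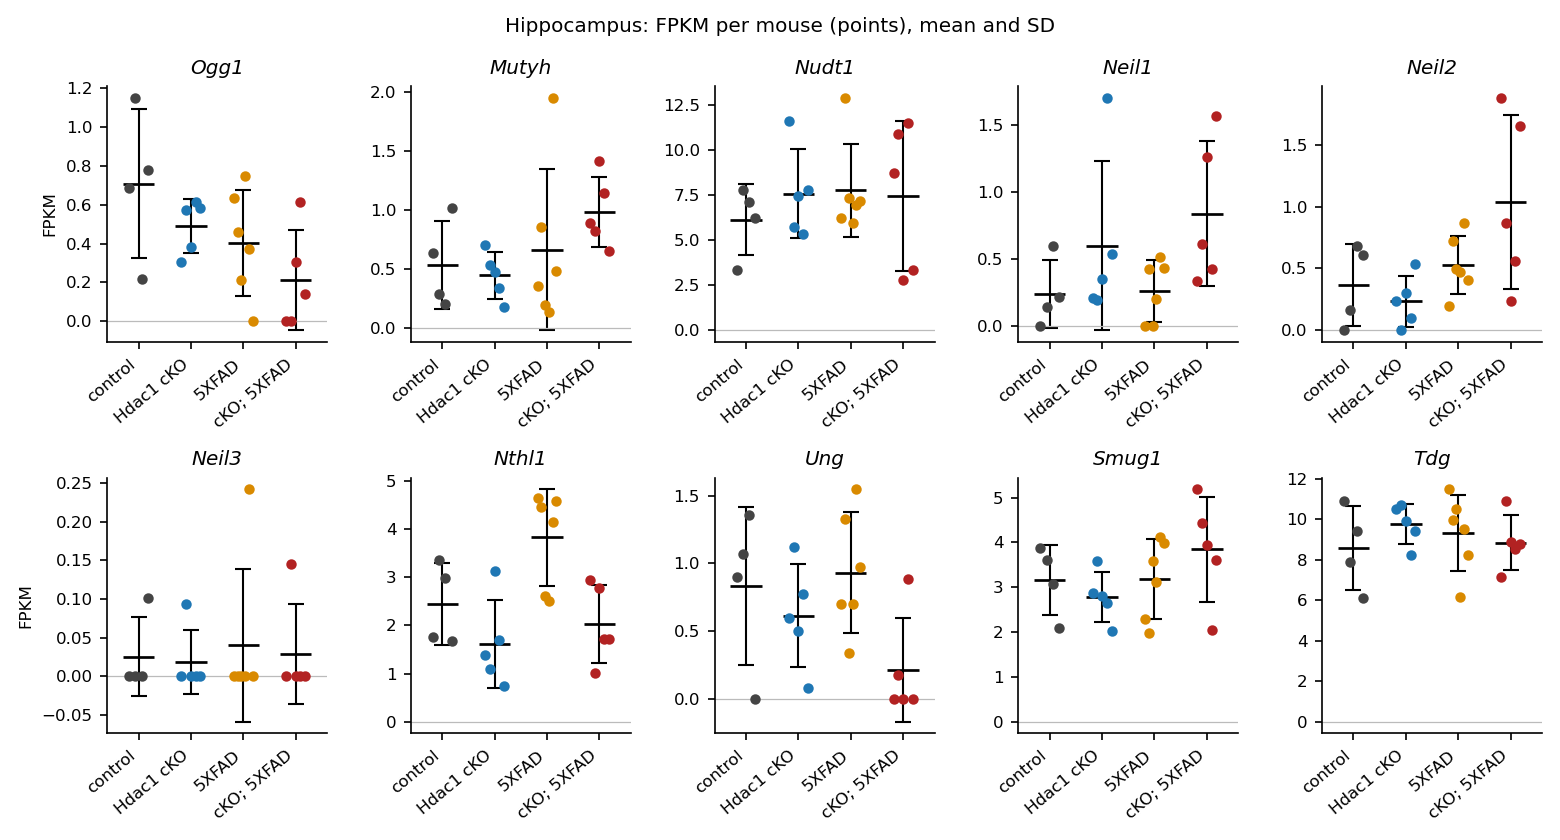
FPKM of each member in every hippocampal mouse (points) with the mean and SD of each group (black), 4 control, 5 Hdac1 cKO, 6 5XFAD and 5 compound mice; each panel has its own FPKM axis. Ogg1 has its highest value, 1.15 FPKM, in a control mouse and is listed at 0 in 2 of the 5 compound mice, and the groups of every member overlap.

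The order was different in the GFAP+ nuclei, which were prepared by another library method (SMART-Seq) from another brain region and compartment, so that the levels were set side by side and not tested. Nthl1 (10.3 ± 2.79 FPKM, SD, n = 7), Neil1 (7.61 ± 3.59 FPKM) and Mutyh (5.11 ± 2.62 FPKM) led, and Nudt1 had 4.47 ± 1.05 FPKM, Smug1 3.4 ± 1.16 FPKM, Ogg1 2.5 ± 1.08 FPKM and Tdg 2.3 ± 1.33 FPKM. Neil2 (0.626 ± 0.431 FPKM), Ung (0.193 ± 0.176 FPKM) and Neil3 (0.136 ± 0.195 FPKM) were lowest. Thus Neil1, among the lowest members in the hippocampal tissue, was among the highest here, while Tdg, the highest there, was among the lower ones. Ung, the main uracil glycosylase, had between 0 and 7 fragments per nuclear library.

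Ogg1 rested on few fragments in the hippocampus. The 4 control mice had 0.687, 1.15, 0.217 and 0.78 FPKM, from 3, 11, 1 and 5 fragments. The 5 Hdac1 cKO mice had 0.304, 0.57, 0.383, 0.613 and 0.584 FPKM, from 2 to 6 fragments. The 6 5XFAD mice had 0 to 0.745 FPKM with a median of 0.415, and the 5 compound mice had 0, 0, 0.304, 0.613 and 0.141 FPKM, from 0 to 6 fragments. The highest value was in a control mouse and the values of 0 were in 5XFAD and compound mice, but every pair of groups overlapped. A count of 0 in 1 library allows up to 3 fragments, as many as several of the other libraries held.

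Pooled over mice, Ogg1 gave 20 fragments in 18600000 in control (1.07 per 1000000, exact Poisson 95% interval 0.655 to 1.66), 20 in 29700000 in Hdac1 cKO (0.673, 0.411 to 1.04), 17 in 32500000 in 5XFAD (0.523, 0.304 to 0.837) and 8 in 21500000 in compound mice (0.372, 0.16 to 0.732). These intervals cover counting error only. The spread of Ogg1 between mice of a group was 0.281 to 1.72 times what counting alone would give. This ratio is the chi-square of the fragments over its degrees of freedom. With so few fragments and mice it cannot tell counting error from differences between mice. Scaled by library size, the ratio to control was 0.627 (exact interval 0.32 to 1.23) in Hdac1 cKO, 0.487 (0.24 to 0.979) in 5XFAD and 0.346 (0.132 to 0.821) in compound mice. The intervals of these ratios cover counting error only as well. Control mouse 2 held 11 of the 20 control fragments, and compound mouse 4 held 6 of the 8 in compound mice. Each was the largest library of its group.

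Tested over mice, Ogg1 did not reach the threshold in any comparison. Its log2 difference of FPKM + 1 was -0.17 (SE 0.19, limma adjusted p = 0.79) for Hdac1 cKO and -0.28 (SE 0.21, limma adjusted p = 0.676) for 5XFAD against control. The 95% interval for Hdac1 cKO, -0.59 to 0.25, spans 0.664-fold to 1.19-fold on that scale. A pseudocount of 1 damps differences of genes this low, and with one of 0.1 the values were -0.33 and -0.80 (limma adjusted p = 0.855 and 0.712). Leaving out 1 mouse at a time moved the Hdac1 cKO value from -0.33 without control mouse 3 to -0.05 without control mouse 2, and the 5XFAD value from -0.43 without control mouse 3 to -0.19 without 5XFAD mouse 6. In both of these comparisons Ogg1 passed the filter through the control group, whose mean was 0.708 FPKM, against 0.491 FPKM in Hdac1 cKO and 0.404 FPKM in 5XFAD. In the other hippocampal comparisons Ogg1 had a mean under the 0.5 FPKM needed for the test. There the two-sided exact permutation p was 0.0556 for compound against control, 0.245 for compound against 5XFAD, 0.122 for Hdac1 loss over all 20 mice and 0.0245 for 5XFAD over all 20 mice. Without the filter, limma gave -0.30 (SE 0.12, adjusted p = 0.333) for 5XFAD over all 20 mice, and -0.49 (SE 0.19, adjusted p = 0.443) for compound against control.

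In the GFAP+ nuclei Ogg1 was read from more fragments. The 3 controls had 37, 46 and 17 fragments (3.36, 3.86 and 1.78 FPKM), and the 4 Hdac1 cKO mice had 7, 31, 34 and 30 fragments (0.575, 2.93, 2.46 and 2.54 FPKM). The lowest value was that of Hdac1 cKO mouse 1, and the other 3 Hdac1 cKO mice lay within the range of the controls. The log2 difference was -0.40 (SE 0.35, limma adjusted p = 0.984), -0.10 without Hdac1 cKO mouse 1 and -0.64 without control mouse 4. Between mice the fragments of Ogg1 spread 3.98 times in controls and 6.31 times in Hdac1 cKO mice what counting alone would give. Camk1, which overlaps Ogg1, had 29.8 to 44.6 FPKM in the control and 19.2 to 37.1 FPKM in the Hdac1 cKO nuclei, a log2 difference of -0.52 (SE 0.24, limma adjusted p = 0.984); whether the shared stretch takes part in the value of Ogg1 was not tested.

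**Figure D2:**
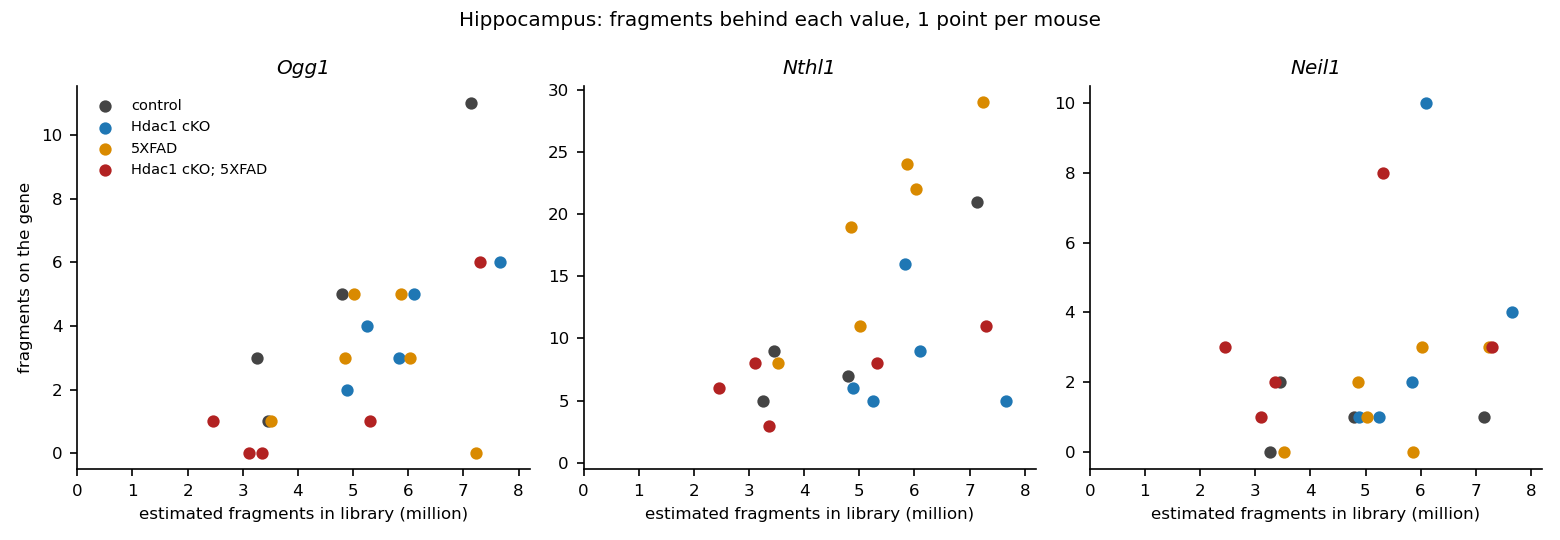
Fragments on Ogg1, Nthl1 and Neil1 (vertical axis) against the estimated number of fragments in the library (horizontal axis, in units of 1000000), 1 point per hippocampal mouse, coloured by group. Ogg1 holds at most 11 fragments in any mouse and Neil1 at most 10, while Nthl1 reaches 29.

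The genes most like Ogg1 in pattern, by Pearson's r of log2(FPKM + 1) over the 20 hippocampal mice among 14389 genes, were Pcdhga2 (r = 0.72, Spearman's rho 0.71), Aqp7 (r = 0.69, rho 0.67) and Nme6 (r = 0.68, rho 0.58). Without the 2 mice farthest from the median of Ogg1 the values of r were 0.63, 0.62 and 0.52. These are the highest of many and the points share their groups and depths, so they describe these mice only. Pcdhga2 belongs to a cluster of protocadherin genes that share their last exons, so its own value is uncertain. Among the members, r with Ogg1 ranged from -0.58 for Neil2 to 0.29 for Ung.

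The partners of OGG1 in the handling of 8-oxoguanine, Mutyh and Nudt1, are described next. Mutyh had 0.639, 0.292, 0.202 and 1.02 FPKM in the control mice and 0.894, 0.824, 1.41, 1.14 and 0.655 FPKM in the compound mice. All 5 compound mice were above 4 of the 5 Hdac1 cKO mice, which had 0.181 to 0.708 FPKM, but each pair of groups overlapped. The log2 difference of compound against control was 0.39 (SE 0.21, limma adjusted p = 0.558). It was 0.92 with a pseudocount of 0.1 and 0.27 with the choroid plexus score as a covariate (limma adjusted p = 0.551 and 0.883). In 5XFAD mice Mutyh ranged from 0.139 to 1.95 FPKM with a median of 0.418, from 1 to 17 fragments, a spread 5.39 times that of counting. In the nuclei it had 5.92, 5.07 and 2.92 FPKM in controls and 4.13, 2.73, 10.5 and 4.5 FPKM in Hdac1 cKO mice, a log2 difference of 0.11 (SE 0.36, limma adjusted p = 0.996). Hpdl, 467 bases beyond the 3′ end of Mutyh on the opposite strand, had 2.49 to 4 FPKM in control and 4.08 to 5.46 FPKM in Hdac1 cKO hippocampus; its log2 difference of 0.39 (SE 0.14) had a limma adjusted p of 0.308.

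Nudt1 had 5 to 62 fragments per library in the hippocampus. It had 6.12 ± 1.96 FPKM (SD, n = 4) in control, 7.59 ± 2.5 (SD, n = 5) in Hdac1 cKO, 7.75 ± 2.55 (SD, n = 6) in 5XFAD and, in compound mice, 7.45 ± 4.15 FPKM (SD, n = 5). The compound mice split into 8.74, 10.9 and 11.5 FPKM and 2.77 and 3.33 FPKM, and their fragments spread 7.01 times what counting would give. The log2 difference was 0.28 (SE 0.24, limma adjusted p = 0.712) for Hdac1 cKO and 0.31 (SE 0.22, limma adjusted p = 0.657) for 5XFAD against control. Without control mouse 1 these values were 0.05 and 0.08, and with the choroid plexus score as a covariate they were 1.03 and 0.56 (limma adjusted p = 0.471 and 0.415). In the nuclei Nudt1 had 3.05 to 5.96 FPKM in controls and 4.34 to 5.25 FPKM in Hdac1 cKO mice.

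Nthl1, the endonuclease III homologue that removes oxidized pyrimidines, gave the smallest p of the members for Hdac1 loss. It lies at chr17:24769627-24775783 on the plus strand. The control mice had 1.75, 3.35, 2.98 and 1.67 FPKM and the Hdac1 cKO mice 1.39, 1.09, 3.12, 1.69 and 0.743 FPKM. The 5XFAD mice had 2.5 to 4.65 FPKM with a median of 4.3, and the compound mice 2.94, 1.01, 2.78, 1.72 and 1.72 FPKM. In 4 of the 6 5XFAD mice Nthl1 was above every mouse of the other groups, and both groups with Nestin-Cre lay lower than their counterparts on average but overlapped with them.

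Over all 20 mice, the log2 difference of Nthl1 for Hdac1 loss was -0.57 (SE 0.16, 95% interval -0.91 to -0.23, limma adjusted p = 0.292), and the exact permutation of mice within the 5XFAD states gave p = 0.006. The adjusted p of limma stayed between 0.171 and 0.708 over the alternative settings. Against 5XFAD, the compound mice differed by -0.68 (SE 0.20, limma adjusted p = 0.7), with 36 fragments in 21500000 against 113 in 32500000, a ratio of 0.481 (exact interval for counting error 0.321 to 0.706). Hdac1 cKO against control gave -0.43 (SE 0.25, limma adjusted p = 0.546). For 5XFAD against control the difference was 0.49 (SE 0.21, limma adjusted p = 0.414). Slc9a3r2, whose end lies 444 bases from the 3′ end of Nthl1 on the opposite strand, also had a lower mean with Hdac1 loss, 12.4 against 15.2 FPKM, a log2 difference of -0.31 (SE 0.12, limma adjusted p = 0.4). Whether reads of one gene were assigned to the other was not tested.

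In the GFAP+ nuclei the sign of Nthl1 was the other one. The controls had 9.86, 7.05 and 10.1 FPKM and the Hdac1 cKO mice 15.4, 7.38, 10.9 and 11 FPKM, from 51 to 123 fragments. The log2 difference was 0.26 (SE 0.24, 95% interval -0.27 to 0.79, limma adjusted p = 0.984), and the difference between tissues was not tested. It was 0.10 without Hdac1 cKO mouse 1 and 0.43 without Hdac1 cKO mouse 2.

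The NEIL glycosylases also act on single-stranded and bubble DNA. Neil1 had 0, 0.145, 0.6 and 0.216 FPKM in control, 0.211, 0.198, 0.354, 1.7 and 0.539 FPKM in Hdac1 cKO, 0 to 0.513 FPKM with a median of 0.316 in 5XFAD, and 0.333, 0.614, 1.26, 0.425 and 1.56 FPKM in compound mice. Its mean was higher in both Nestin-Cre groups than in their counterparts, with overlapping values. The pooled fragments were 4 in 18600000 in control, 18 in 29700000 in Hdac1 cKO, 9 in 32500000 in 5XFAD and 17 in 21500000 in compound mice. Of the 18 in Hdac1 cKO, mouse 4 held 10, and of the 17 in compound mice, mouse 5 held 8. The exact permutation p for Hdac1 loss over all 20 mice was 0.0171, and limma without the filter gave 0.43 (SE 0.16, adjusted p = 0.434). For compound against 5XFAD the log2 difference was 0.51 (SE 0.21, limma adjusted p = 0.734), or 1.53 with a pseudocount of 0.1, and for compound against control it was 0.54 (SE 0.25, limma adjusted p = 0.476). In both comparisons Neil1 passed the filter only through the compound mice, whose mean was 0.839 FPKM, against 0.262 FPKM in 5XFAD and 0.24 FPKM in control mice.

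In the nuclei Neil1 was among the highest members. The controls had 53, 71 and 5 fragments (6.68, 8.25 and 0.725 FPKM) and the Hdac1 cKO mice 73, 51, 111 and 98 fragments (8.32, 6.69, 11.1 and 11.5 FPKM). Of the 4 Hdac1 cKO mice 3 were above all controls, and control mouse 4 stood far below the rest. The log2 difference was 1.04 (SE 0.56, limma adjusted p = 0.984, exact permutation p = 0.0571). It was 0.28 without control mouse 4 and 1.49 without control mouse 3. Man2c1, 78 bases from the 3′ end of Neil1 on the opposite strand, had a log2 difference of -0.12 (SE 0.19) in the nuclei.

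Neil2 had 0, 0.164, 0.679 and 0.611 FPKM in control, 0 to 0.534 FPKM in Hdac1 cKO, 0.199 to 0.87 FPKM in 5XFAD and 1.88, 0.867, 0.238, 0.56 and 1.65 FPKM in compound mice. The 2 highest hippocampal values were those of compound mice, and the groups overlapped. For 5XFAD over all 20 mice the log2 difference was 0.43 (SE 0.16, 95% interval 0.10 to 0.77, limma adjusted p = 0.254, exact permutation p = 0.0173), or 1.27 with a pseudocount of 0.1 (limma adjusted p = 0.238). Here Neil2 passed the filter only through the mice with 5XFAD, with a mean of 0.76 against 0.291 FPKM. Compound mice differed by 0.54 (SE 0.28, limma adjusted p = 0.535) from control, where Neil2 passed only through the compound mice (1.04 against 0.363 FPKM). That difference was 1.01 with the choroid plexus score as a covariate and 1.44 with a pseudocount of 0.1. From 5XFAD mice the compound mice differed by 0.36 (SE 0.22, limma adjusted p = 0.763). This value was 0.69 with a pseudocount of 0.1, and 0.22 to 0.52 with each mouse left out. The scores of the glial markers were also higher in the mice with 5XFAD, though not every single marker was. The microglial score is given above, and the score of the 6 astrocyte markers was 5.45 ± 0.06 (SD, n = 4) in control, 5.54 ± 0.04 (SD, n = 5) in Hdac1 cKO, 5.82 ± 0.08 (SD, n = 6) in 5XFAD and 6.11 ± 0.15 (SD, n = 5) in compound mice. Gfap had 23.5 to 26.6, 23.4 to 32, 81.3 to 118 and 89 to 176 FPKM in these groups. In the same order, the medians of Aqp4 were 23.4, 30.5, 28 and 52.6 FPKM. Those of Gja1 were 41.3, 42.1, 34.2 and 49.5 FPKM, and those of Slc1a3 126, 116, 124 and 125 FPKM. Aldh1l1 had medians of 12.8, 11.3, 12.7 and 13.5 FPKM, and Slc1a2 of 166, 175, 176 and 165 FPKM. The part of either cell type in the value of Neil2 was not tested. In the nuclei Neil2 had 0.783, 1.44 and 0.409 FPKM in controls and 0.129, 0.371, 0.452 and 0.796 FPKM in Hdac1 cKO mice. It passed the filter there only through the controls (0.879 against 0.437 FPKM). The log2 difference was -0.37 (SE 0.29, limma adjusted p = 0.984), -0.56 without control mouse 4 and -0.88 with a pseudocount of 0.1. Neil3, which is known mainly from proliferating cells, had 6 fragments in all 20 hippocampal libraries together and 18 in the 7 nuclear libraries, 10 of them in Hdac1 cKO mouse 3. It stayed below the filter in every comparison, and differences in it were not detectable at this depth. Of the 5 markers of cycling cells, Mki67, Top2a, Ccnb1 and Cdk1 were under 1 FPKM in every library. The fifth, Birc5, had medians of 1.26 FPKM in control, 1.9 in Hdac1 cKO, 1.38 in 5XFAD and 2.02 in compound hippocampus, and of 4.53 and 4.65 FPKM in control and Hdac1 cKO nuclei.

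Ung and Smug1 remove uracil, and Smug1 also removes 5-hydroxymethyluracil. Ung had 0.901, 1.07, 1.36 and 0 FPKM in control, 0.599, 1.12, 0.503, 0.772 and 0.0765 FPKM in Hdac1 cKO, 0.334 to 1.55 FPKM with a median of 0.84 in 5XFAD and 0, 0.174, 0, 0.885 and 0 FPKM in compound mice. Of the 5 compound mice, 3 were listed at 0 and compound mouse 4 held 11 of their 12 fragments. Against 5XFAD the log2 difference was -0.69 (SE 0.22, limma adjusted p = 0.711, exact permutation p = 0.0173), with 12 fragments in 21500000 against 54 in 32500000. With a pseudocount of 0.1 it was -2.29 (limma adjusted p = 0.732). For Hdac1 loss over all 20 mice the log2 difference was -0.45 (SE 0.18, limma adjusted p = 0.444, exact permutation p = 0.0329). With a pseudocount of 0.1 this difference was -1.30 (limma adjusted p = 0.503). In both comparisons Ung passed the filter only through the mice without Nestin-Cre, with means of 0.932 against 0.212 FPKM and of 0.893 against 0.413 FPKM. Against control the exact permutation p was 0.103, with one control mouse also at 0.

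Relative to its mean over the 20 hippocampal mice, Smug1 had the smallest SD after Tdg. It had 3.16 ± 0.79 FPKM (SD, n = 4) in control, 2.79 ± 0.558 (SD, n = 5) in Hdac1 cKO, 3.18 ± 0.884 (SD, n = 6) in 5XFAD and, in compound mice, 3.85 ± 1.17 FPKM (SD, n = 5), from 33 to 98 fragments per library. The log2 difference of Hdac1 cKO against control was -0.13, and its 95% interval ran from -0.50 to 0.25. It was -0.48 with the choroid plexus score as a covariate, -0.05 with the replicate block, -0.26 without control mouse 4 and -0.04 without control mouse 1. In the nuclei Smug1 averaged 3.47 ± 1.16 FPKM over the 3 controls and 3.34 ± 1.33 FPKM over the 4 Hdac1 cKO mice.

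Tdg, the thymine DNA glycosylase, lies at chr10:82092573-82113544 and shares 367 exonic bases at its 3′ end with Glt8d2 on the opposite strand. It had 8.58 ± 2.04 FPKM (SD, n = 4) in control, 9.76 ± 0.984 (SD, n = 5) in Hdac1 cKO, 9.31 ± 1.88 (SD, n = 6) in 5XFAD and, in compound mice, 8.86 ± 1.35 FPKM (SD, n = 5). In the hippocampus its intervals were the narrowest of the members with a mean above 1 FPKM. Over all 20 mice the 95% interval of the log2 difference was -0.17 to 0.28 for Hdac1 loss and -0.24 to 0.21 for 5XFAD, which for Hdac1 loss spans 0.89-fold to 1.21-fold on that scale. In the nuclei Tdg had 2.43, 3.82 and 2.39 FPKM in controls and 4.11, 1.67, 1.31 and 0.372 FPKM in Hdac1 cKO mice. Of the Hdac1 cKO mice 3 lay below all controls and mouse 1 above them, and the log2 difference was -0.58 (SE 0.39, limma adjusted p = 0.984). It was -0.28 without Hdac1 cKO mouse 4, -0.91 without Hdac1 cKO mouse 1 and -0.96 with a pseudocount of 0.1.

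**Figure D3:**
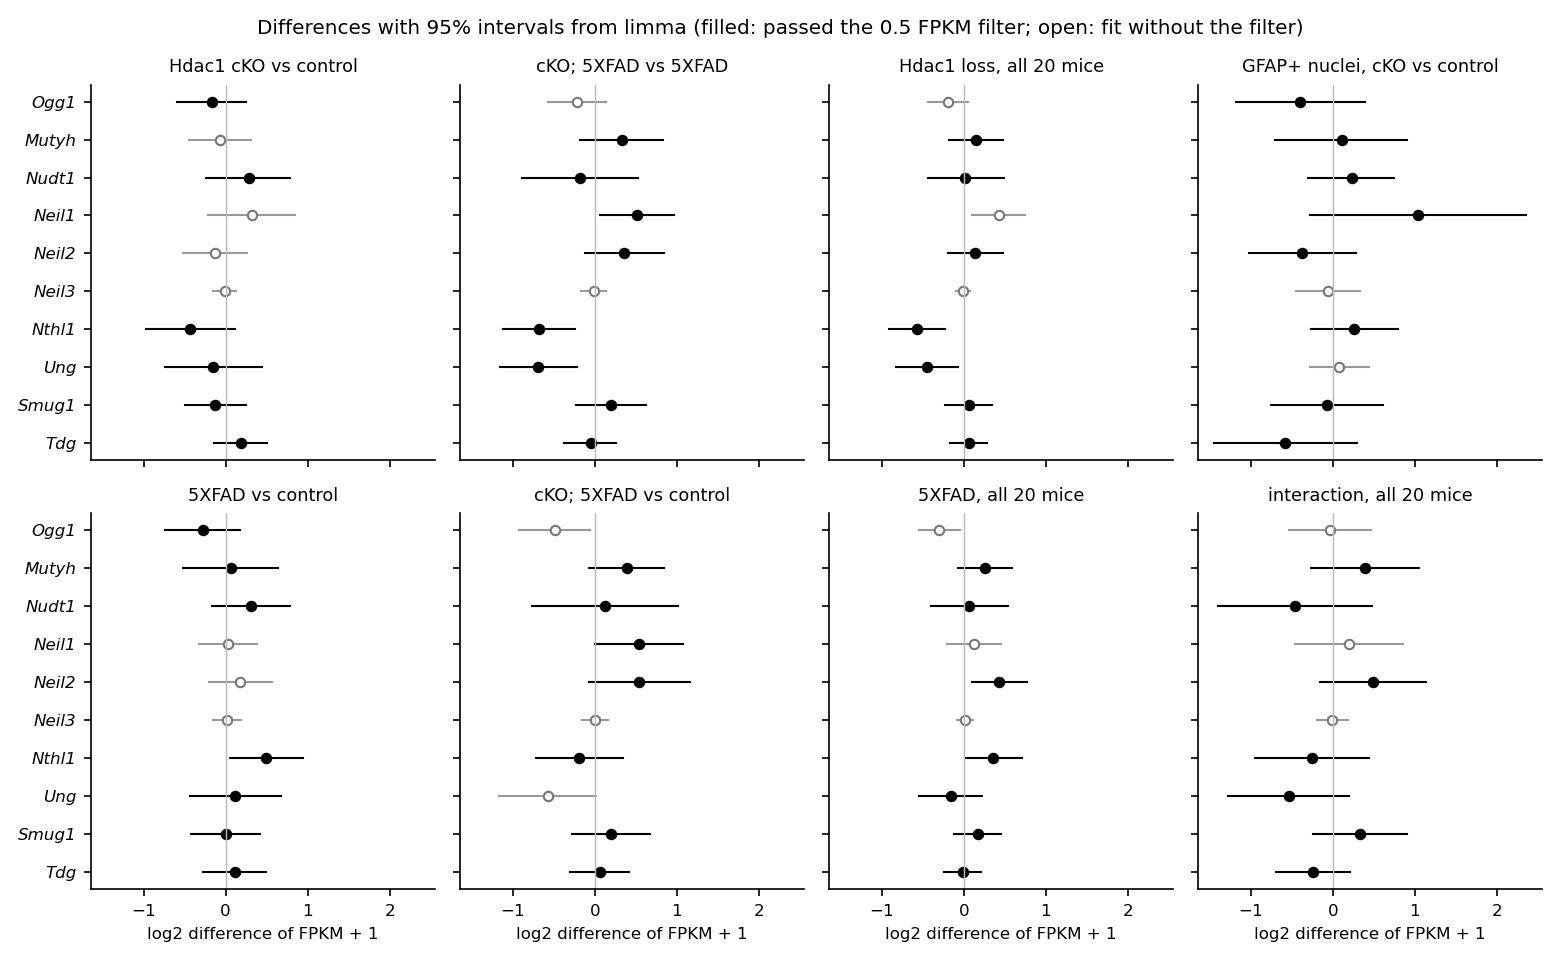
Log2 difference of FPKM + 1 with its 95% interval from limma for each member (rows) in each comparison (panels); filled points passed the filter of a mean of 0.5 FPKM and open points come from the fit without it. For Hdac1 loss over all 20 mice the intervals of Nthl1 (-0.91 to -0.23) and Ung (-0.82 to -0.07) lie below 0 and that of Neil1 from the fit without the filter (0.10 to 0.75) lies above 0, and no adjusted p of any member was under 0.05.

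**Figure D4:**
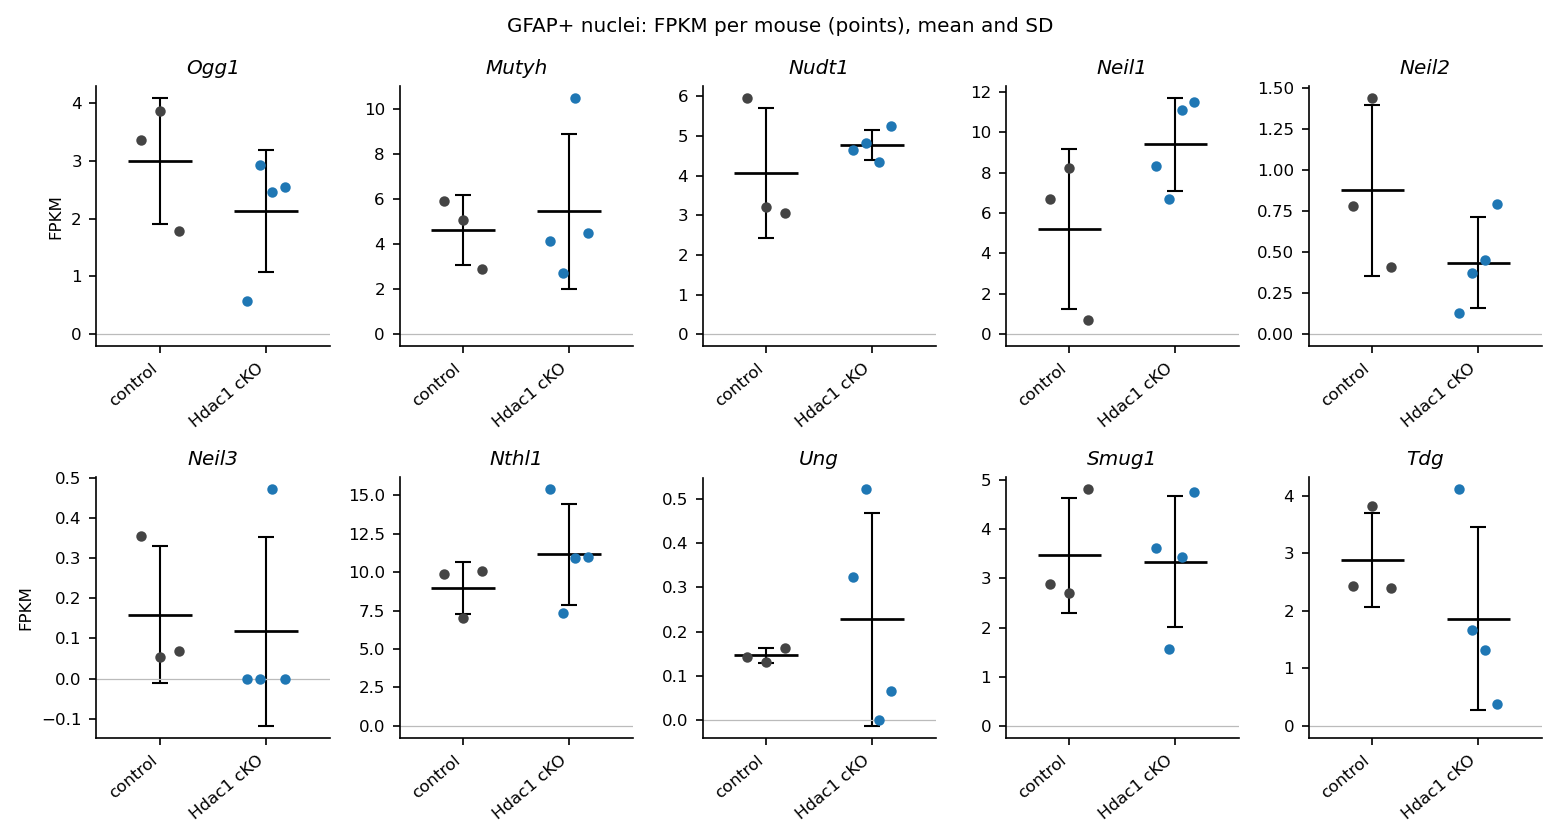
FPKM of each member in every library of GFAP+ nuclei (points) with the mean and SD of each group (black), 3 control and 4 Hdac1 cKO mice; each panel has its own FPKM axis. Neil1 has 1 control mouse at 0.725 FPKM below all others, and Ogg1 has 1 Hdac1 cKO mouse at 0.575 FPKM below all others.

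Counted over the members, none had an adjusted p under 0.05 in limma in any of the 8 comparisons. A member that passed the filter only through its higher group had to differ, as given above for Ogg1, Neil1, Neil2 and Ung, so the counts are a description. The study's thresholds were a fold change of 1.5 and an unadjusted p under 0.05, and the fold is taken here on the scale of FPKM + 1, which understates it for low genes. In the counts that follow, a gene passed if its adjusted p was under 0.05. For Hdac1 cKO against control, 0 of 6 tested members passed, where 0.154% of 14265 genes did. Of these 6, 0 had an unadjusted p under 0.05, against 11.7% of all genes, and 0 also had a fold of 1.5 on that scale, against 3.36%. For 5XFAD against control, 0 of 7 passed (0.708% of all genes), 1 had an unadjusted p under 0.05 (10.7%) and 0 also had that fold (2.95%). The 1 was Nthl1, with means of 3.82 against 2.44 FPKM. For compound against control, 0 of 7 passed (0.662%), 1 had an unadjusted p under 0.05 (10.5%) and 0 also had that fold (4.24%). The 1 was Neil1, with means of 0.839 against 0.24 FPKM. For compound against 5XFAD, 0 of 8 passed (0.00698%), 3 had an unadjusted p under 0.05 (6.61%), and Nthl1 and Ung, 2 of the 8, also had that fold (1.28%).

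In the GFAP+ nuclei 0 of 8 tested members passed (0.0133% of 15070 genes), 0 had an unadjusted p under 0.05 (4.7%) and 0 also had that fold (2.58%). Over all 20 hippocampal mice, 0 of 7 passed for Hdac1 loss (0.0139% of 14389 genes) and 2 had an unadjusted p under 0.05 (9.07%). For 5XFAD, 0 of 7 passed (2.14%) and 2 had an unadjusted p under 0.05 (11.4%). For the interaction, 0 of 7 passed (0% of all genes) and 0 had an unadjusted p under 0.05 (8.97%). The median log2 difference of the tested members was -0.14 for Hdac1 cKO, 0.11 for 5XFAD and 0.20 for compound mice against control, where the medians of all tested genes were -0.001, -0.01 and -0.01. With 6 to 8 members each, these medians describe the lists only, and the 3 comparisons share their control mice.

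The 22 other genes of base excision repair and the 4 other hydrolases of oxidized nucleotides gave no adjusted p under 0.05 either, with 21 and 3 of them tested in each hippocampal comparison. Those with the smallest exact p are described. Apex1, the endonuclease that cuts the empty site left by a glycosylase, had 4.35 ± 0.949 FPKM (SD, n = 4) in control, 2.68 ± 1.21 (SD, n = 5) in Hdac1 cKO, 2.87 ± 1.4 (SD, n = 6) in 5XFAD and, in compound mice, 1.84 ± 1.02 FPKM (SD, n = 5). In compound against control, Apex1 was the 1 of 21 tested pathway genes whose groups did not overlap. The share of all genes without overlap is not given here for any comparison. All 5 compound mice were below all 4 control mice, with a log2 difference of -0.98 (SE 0.27, limma adjusted p = 0.18). Against control it was -0.59 (SE 0.25, limma adjusted p = 0.366) for Hdac1 cKO and -0.53 (SE 0.24, limma adjusted p = 0.465) for 5XFAD. Over all 20 mice Apex1 differed by -0.52 (SE 0.20, limma adjusted p = 0.4) for Hdac1 loss and by -0.45 (SE 0.20, limma adjusted p = 0.365) for 5XFAD. Apex1 in the nuclei had the other sign, 0.42 (SE 0.26, limma adjusted p = 0.984). Parp2, which senses strand breaks, differed by -0.31 (SE 0.14, limma adjusted p = 0.412) in Hdac1 cKO and by -0.52 (SE 0.16, limma adjusted p = 0.234) in 5XFAD against control. The scaffold gene Xrcc1 differed by 0.34 (SE 0.11, limma adjusted p = 0.283) in 5XFAD against control. In compound against control it differed by -0.004 (SE 0.22, limma adjusted p = 0.998). For 5XFAD over all 20 mice it differed by 0.13 (SE 0.14, limma adjusted p = 0.803).

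Poll, a gap-filling polymerase, differed by -0.76 (SE 0.24, limma adjusted p = 0.711) in compound against 5XFAD mice. In Hdac1 cKO against control it differed by -0.12 (SE 0.20, limma adjusted p = 0.861). For Hdac1 loss over all 20 mice it differed by -0.48 (SE 0.17, limma adjusted p = 0.394). Aplf differed by -0.33 (SE 0.17, limma adjusted p = 0.742) in compound against 5XFAD mice. Aptx, which repairs abortive ligation ends, differed by 0.26 (SE 0.14, limma adjusted p = 0.562) in compound against control and by 0.20 (SE 0.08, limma adjusted p = 0.308) for 5XFAD over all 20 mice, where Aplf differed by -0.27 (SE 0.12, limma adjusted p = 0.381). Fen1, the flap endonuclease, differed by -0.65 (SE 0.31, limma adjusted p = 0.984) in the nuclei. Among the hydrolases, Nudt5 in the nuclei was higher in all 4 Hdac1 cKO mice than in the 3 controls. Its log2 difference was 0.42 (SE 0.22, limma adjusted p = 0.984), and it was the 1 of 3 tested hydrolases there without overlap. The nuclear mice allow only 35 arrangements, so the exact permutation p cannot fall below 0.0286. Without the share of all genes that do not overlap, this separation cannot be set against the background. Nudt18 differed by 0.34 (SE 0.14, limma adjusted p = 0.352) in Hdac1 cKO against control hippocampus.

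The study names p300 (gene Ep300) and HDAC1 as enzymes that acetylate and deacetylate OGG1. Their genes were examined as well, with Crebbp, Hdac2, Sirt1 and Sirt3 added here. Whether the products of these added genes act on OGG1 was not tested. Apart from Hdac1, none had an adjusted p under 0.05. The acetyltransferase genes Ep300 and Crebbp had log2 differences of -0.11 (SE 0.13) and -0.12 (SE 0.09) in Hdac1 cKO against control hippocampus. Hdac2 differed by -0.19 (SE 0.15), so the means of the related deacetylase were 16 FPKM in Hdac1 cKO and 18.4 FPKM in control mice. Sirt1 differed by -0.19 (SE 0.21). Sirt3, the mitochondrial deacetylase, was 45.4 FPKM on average in the 10 mice without and 56.4 FPKM in the 10 mice with Nestin-Cre, a log2 difference of 0.31 (SE 0.09, limma adjusted p = 0.292) for Hdac1 loss. In the GFAP+ nuclei Sirt1 was lower in all 4 Hdac1 cKO mice than in the 3 controls. Its log2 difference was -0.28 (SE 0.15, limma adjusted p = 0.984), and it was the 1 of 6 tested genes of this list without overlap there. The share of all genes without overlap is not given for the nuclei either.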

How the data were processed

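RNA-seq values of 27 of the 34 samples listed were analysed; 6 ChIP samples and 1 control sample of GFAP+ nuclei were not analysed here. Each file deposited by the authors lists FPKM values of 23951 genes for 1 mouse. Per the paper's methods, the hippocampal values came from 3′ Digital Gene Expression, Tophat2 and Cufflinks 2.0.0 on mm9, and the submitters' processing notes also list Bowtie; the nuclei were profiled with SMART-Seq. Scaling by length, although 3′ libraries read 1 end, shifts genes relative to the filter and pseudocount.

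Here log2(FPKM + 1) was tested, for genes averaging 0.5 FPKM or more, with limma 3.58.1 (R 4.3.3; trend, robust moderation, Benjamini-Hochberg over all genes) for the groups compared, without covariates. The fits were tested on simulated data. Only genes expressed above Ogg1 were shifted there, by 1.5 log2 units, so recovery in lower genes or of smaller shifts was not tested. Exact permutation tests were two-sided. Fragments were read from FPKM steps (tolerance 0.05); the size of the libraries came from genes with 1 GENCODE vM1 transcript, less 200 bases. Alternatives were a pseudocount of 0.1, no filter, a filter of 1 FPKM, quantile and median scaling, plain limma, a choroid plexus score, a replicate block, 1 fit of 4 groups and each mouse left out.

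All members were named, pathway genes by smallest exact p, and neighbours within 1000 bases of a 3′ end. Members and lists were chosen with earlier results of these data known.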

Additional observations from a re-analysis of the deposited data

Results flagged for a closer look

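In 50 sets of a member's values in a group of 4 to 6 mice, 8 held a mouse farther from the others than Dixon's 95% critical value allows. Chance flags about 1 in 20 sets of continuous values. Of the 8, 5 concern Neil3, where a single mouse had fragments and all others were at 0, which exceeds the critical value in any such set, so that this rate does not apply to them, namely control 4 (0.102 FPKM), Hdac1 cKO 2 (0.0932 FPKM), 5XFAD 5 (0.242 FPKM) and compound 2 (0.145 FPKM) in the hippocampus, and Hdac1 cKO 3 in the GFAP+ nuclei (0.472 FPKM). Nudt1 was 12.9 FPKM in 5XFAD mouse 2, where the other 5XFAD mice had 5.97 to 7.35 FPKM. Neil1 was 1.7 FPKM in Hdac1 cKO mouse 4, where the other 4 had 0.198 to 0.539 FPKM. Ung was 0.885 FPKM in compound mouse 4, where the other 4 had 0 to 0.174 FPKM.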

How the results depend on the processing

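In the 173 fits over the 8 comparisons no member had an adjusted p under 0.05. The smallest, 0.117, was that of Neil2, which had passed the filter there only through the mice with 5XFAD. It came from the fit of 5XFAD over all 20 mice with the choroid plexus score as a covariate. With that score the sign of the log2 difference changed for Tdg to -0.11 in Hdac1 cKO and -0.21 in compound against control and to -0.02 for Hdac1 loss over all mice, for Mutyh to -0.09 in 5XFAD against control and for Nthl1 to 0.17 in compound against control. The labels' numbers mark different mice, and same-numbered mice did not deviate together (r from -0.11 to 0.05). With a replicate block, the sign changed for Mutyh (-0.15) and Ung (-0.01) in 5XFAD against control and for Smug1 in the nuclei (0.16), and 0 members were called. The causes were not tested. Leaving out each mouse in turn changed the sign of some differences, which then ranged for Nudt1 from -0.10 to 0.37 and Tdg from -0.08 to 0.17 (compound against control), for Nudt1 from -0.37 to 0.07 and Tdg from -0.15 to 0.01 (compound against 5XFAD), for Mutyh from -0.05 to 0.20, Ung from -0.15 to 0.26, Tdg from -0.03 to 0.22 and Hdac1 from -0.05 to 0.20 (5XFAD against control), for Mutyh from -0.22 to 0.33 and Smug1 from -0.22 to 0.16 (nuclei), for Nudt1 from -0.09 to 0.17, Smug1 from -0.01 to 0.13 and Tdg from -0.01 to 0.10 (Hdac1 loss over all mice), and for Nudt1 from -0.05 to 0.21 and Tdg from -0.08 to 0.03 (5XFAD over all mice). Hdac1 lost its call with the choroid plexus score and with the replicate block in Hdac1 cKO against control (adjusted p = 0.424 and 0.159) and in compound against control (adjusted p = 0.0944 and 0.0527); with the block its log2 differences were -1.19 (-1.23 without it) and -1.64 (-1.60 without it). Counts over all genes moved more: from 22 to 0 with that score or the block and to 290 without control mouse 1 (Hdac1 cKO), from 102 to 48 with the block (5XFAD), from 95 to 27 with that score, 34 with the block, 41 without control mouse 4 and 207 with all 4 groups in 1 fit (compound), from 2 to 5 with the block and 9 without control mouse 4 (nuclei). Ogg1, Neil1, Neil2, Neil3, Mutyh and Ung rested on few fragments in the hippocampus. Some also spread between mice beyond counting: Mutyh 5.39 times in 5XFAD, Ung 4.57 times in compound and Neil1 3.58 times in Hdac1 cKO mice.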
